A study of Mus musculus with 18 samples.

Results

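Podocyte actin genes linked to glomerulosclerosis were measured in sorted glomerular cells of *Cd2ap* mutant and control mice. The 9 genes were *Actn1*, *Actn4*, *Synpo*, *Pdlim2*, *Myo1d*, *Myo1e*, *Myh9*, *Inf2* and *Anln*. They were chosen by name, and all 9 were found among the 22909 genes named in the deposited array table. A gene with more than 1 transcript cluster, the set of probes that the array summarises together, was read from the brightest one, by its mean over the 18 arrays. The 9 genes had 12 clusters in all. RNA had been measured on 18 arrays (Affymetrix Mouse Gene 1.0 ST) from 6 groups of 3: podocytes, mesangial cells and endothelial cells, each from CD2AP-/- mice and from control mice, all at 5 weeks of age. The mutant line was B6.129X1-Cd2ap tm1Shaw/J, in which the allele is carried by every cell of the animal. The cells were sorted on green fluorescent reporters of a different mouse line for each cell type, Meis1-GFP for mesangial cells and Tie2-GFP for endothelial cells among them, so that cell type and reporter line cannot be told apart. No treatment is named. The control groups are called wild type or control in the sample records, and the mesangial control columns of the table carry a plus and a minus sign where the other control columns carry plus signs alone. The arrays of a group are called A, B and C here, which says nothing beyond their identity. The labels do not say whether the arrays of a group came from separate mice, though the series record calls them biological triplicates.

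Podocytes wrap the glomerular capillaries with foot processes, and the shape of a foot process is held by parallel actin bundles that are tied to the slit diaphragm and to the basement membrane. Bundling proteins of the α-actinin family, the motor myosins that pull or tether filaments, and formins such as INF2, which build them, set the length and stiffness of these bundles. Variants of the human genes for α-actinin-4, INF2, myosin 1E, non-muscle myosin IIA and anillin are known causes of inherited glomerular disease. CD2AP, the protein missing in the mutants, is an adaptor at the slit diaphragm that binds actin regulators. Mesangial cells, the contractile cells between the capillaries, and the fenestrated endothelium use many of the same proteins.

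All values are linear signals after RMA, which the authors had run to subtract background, equalise the arrays by quantiles and combine the probes of a cluster, and a signal of 100 was taken as the minimum at which a gene was tested. Array medians ran from 62.8 to 71.6, and 9697 to 10097 transcript clusters per array reached 100. The number of arrays limits the precision. *Cd2ap* itself gave signals of 1512, 1503 and 1478 on the mutant podocyte arrays and of 2108, 1670 and 1546 on the control arrays. In mesangial cells it gave 797 to 870 on the mutant arrays and 922 to 1123 on the control arrays. In endothelial cells it was higher on the arrays labelled mutant (891 to 966) than on the control arrays (757 to 859). The cluster is a summary over the whole transcript, so it does not check the part that the allele removes, and the directions below rest on the labels. The defining podocyte marker *Nphs1* was at 1034 or more on all 6 podocyte arrays, and the defining mesangial and endothelial markers were present on the arrays of those cells.

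Each sort also carried markers of other glomerular cells. The summed signal of 10 endothelial markers was 4742 to 6325 on the control podocyte arrays and 950.4 to 2992 on the mutant podocyte arrays, and 9 of the 10 passed the genotype screen as lower in the mutants. The summed signal of 8 mesangial markers was 3595 to 4477 on the control and 1140 to 3452 on the mutant podocyte arrays. The summed signal of 8 juxtaglomerular and smooth muscle markers ran the other way, from 1764 to 1935 on the control podocyte arrays to 3887, 4177 and 1490 on mutant arrays A, B and C. The summed podocyte markers, 13995 to 17059 on the mutant and 15470 to 17526 on the control arrays, overlapped between the genotypes. Mesangial control array C carried podocyte markers (summed signal 4314, against 1155 and 1326 on arrays A and B) and endothelial markers (8628, against 3151 and 3527). It also stood above them in tubule markers (1886, against 514 and 506), leukocyte markers (937, against 524 and 501) and proliferation markers (906, against 557 and 567). In mesangial cells the summed mesangial markers were 10620 to 11749 on the control and 8229 to 9098 on the mutant arrays, and the juxtaglomerular and smooth muscle markers 3656 to 3956 and 4795 to 5596. The part of these other cells in the results below was not tested. Replicates of the mutant podocytes also correlated least, with a Pearson r over all transcript clusters of 0.967 to 0.971, against 0.980 to 0.992 within the other groups.

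**Figure D1:**
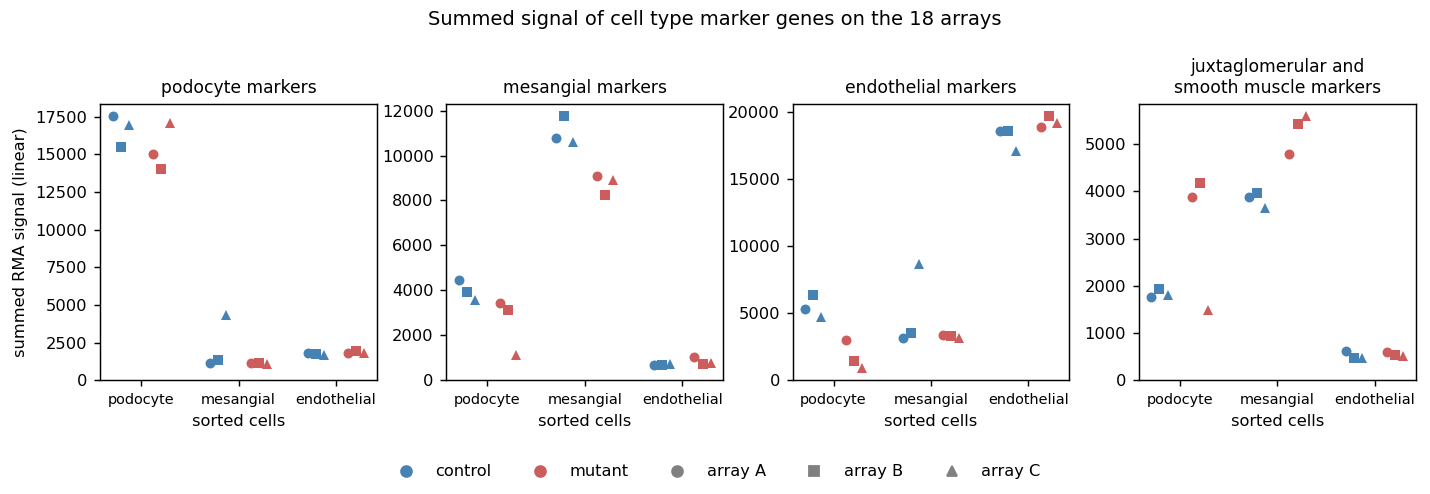
Summed RMA signal (linear) of the marker genes of 4 cell types on each of the 18 arrays, by sorted cell type and genotype, with 1 point per array. Endothelial and mesangial markers sit lower on the mutant than on the control podocyte arrays, and control array C of the mesangial cells stands above its group in podocyte and endothelial markers.

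In control mice the genes fell into 3 patterns across the cell types. *Synpo*, *Inf2* and *Pdlim2* were higher in podocytes than in mesangial cells. *Actn1*, *Actn4*, *Myo1d* and *Myo1e* were higher in both podocytes and mesangial cells than in endothelial cells and did not pass the test between podocytes and mesangial cells. *Myh9* was higher in mesangial than in endothelial cells by a narrow margin, and *Anln* was under the signal minimum on every array. A difference between cell types was called at a Benjamini-Hochberg adjusted p under 0.05 in limma, over all transcript clusters tested, with a fold change over 1.5. Of the 8 genes tested between control podocytes and mesangial cells, 3 were called higher in podocytes and 0 lower, where 6.01% and 9.36% of all 11888 clusters were. Between podocytes and endothelial cells, 5 of 8 were called higher in podocytes and 0 lower, against 10.1% and 12.4% of 12023 clusters. Between mesangial and endothelial cells, 6 of 8 were called higher in mesangial cells and 1 lower, against 9.84% and 8.04% of 11936 clusters. These counts include *Inf2* against mesangial cells and *Synpo* against endothelial cells, which lay under the signal minimum on each control array of those cells and were tested through the brighter group only. Without them, and over the clusters that reached the minimum in both cell types, 2 of 7 genes were called higher in podocytes than in mesangial cells and 0 lower, against 4.54% and 8.42%. Likewise 4 of 7 were called higher in podocytes than in endothelial cells and 0 lower, against 6.43% and 11%, and 5 of 6 higher in mesangial than in endothelial cells and 0 lower, against 6.69% and 6.49%. The bounds given below for *Inf2*, and for *Synpo* in mesangial cells, are under a fold change of 1.5. The median log2 difference of the 8 genes was -0.08, 0.84 and 0.76 in the 3 comparisons, and that of all clusters tested was -0.04, -0.02 and -0.01. *Cd2ap* itself, which is no member of the list, was 1.72-fold higher in control podocytes than in control mesangial cells and 2.15-fold higher than in control endothelial cells. The plus and minus sign of the mesangial control columns leaves the *Cd2ap* alleles of those mice unsettled, so cell type and allele cannot be told apart where control mesangial cells are compared with other controls, or where the genotype effect in mesangial cells is compared with that in other cells.

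**Figure D2:**
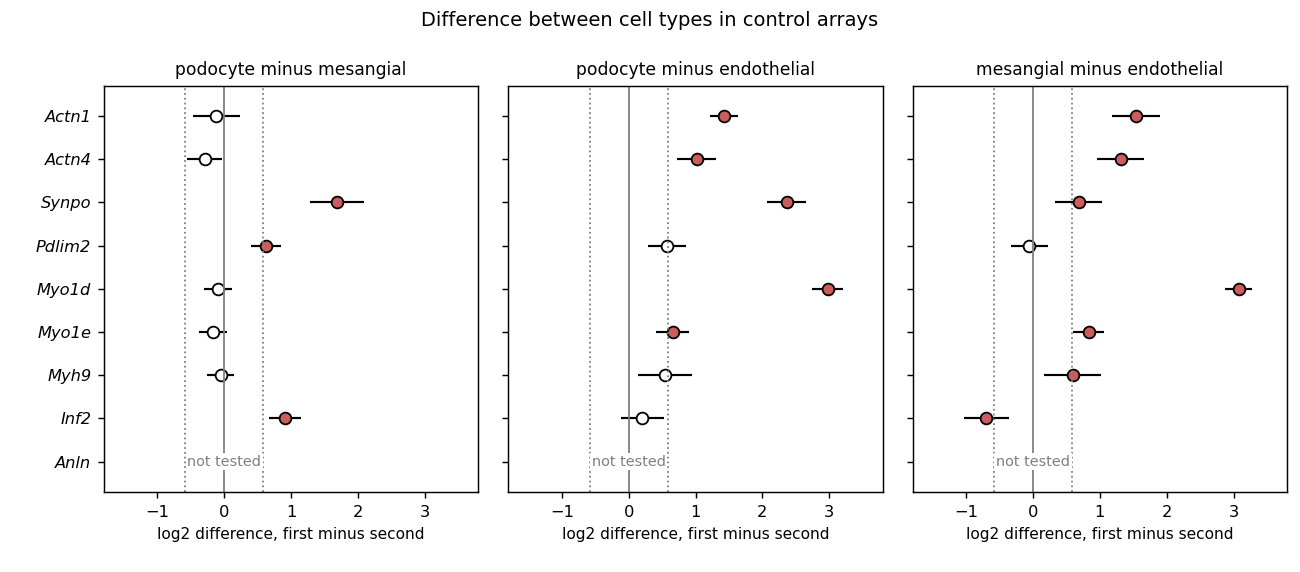
Log2 difference between cell types in control arrays for each gene, with the 95% confidence interval from limma (3 arrays per cell type). Filled points were called, dotted lines mark a fold change of 1.5, and *Myo1d* lies close to 3 against endothelial cells. Points for *Inf2* against mesangial cells and *Synpo* against endothelial cells rest on a group under the signal minimum.

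Between genotypes the changes were few. In mutant podocytes *Actn1* and *Inf2* were higher and *Myo1d* was lower. In mesangial cells *Myo1e* was lower in the mutants, and *Actn4* and *Myo1d* had log2 differences of the same sign that were nearer 0. In endothelial cells *Actn1* was higher on the arrays labelled mutant. The screen used here takes the thresholds of the study's low stringency screen, a p under 0.05 and a fold change over 1.5. Here the p was taken without adjustment and came from limma, which the methods do not name. The screen called 3 of 8 genes in podocytes, 2 higher and 1 lower, where it called 5.61% of all 12113 clusters tested. Without mutant podocyte array A it called 10.3% of clusters, and *Actn1* was no longer among them. In mesangial cells it called 0 of 7 genes, where it called 5.19% of 11457 clusters, and 3 of the 7 had an unadjusted p under 0.05 in limma. In endothelial cells it called 1 of 8, where it called 3.82% of 11330 clusters.

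With the adjusted p in place of the unadjusted p, 0 members passed the same fold change in limma in each cell type, where 0.0578% of clusters did in podocytes, 2.2% in mesangial cells and 1.13% in endothelial cells. With all 18 arrays in 1 limma fit, so that all groups share 1 estimate of the spread, the same adjusted rule called 3 of 8 genes in podocytes, *Actn1* (adjusted p = 0.0472), *Inf2* (0.00598) and *Myo1d* (0.00788), where it called 3.76% of clusters. It called 0 genes in mesangial cells and 0 in endothelial cells, where it called 2.91% and 1.32%. At an adjusted p under 0.05 and any fold change there were 0 members of 8 in podocytes, where 0.0578% of clusters had such a p and 4 members had an unadjusted one, 1 of 7 in mesangial cells, against 2.92%, and 0 of 8 in endothelial cells, against 1.29%. At an unadjusted limma p under 0.05 and any fold change there were 4 members of 8 in podocytes, where 14.3% of all clusters had such a p, 3 of 7 in mesangial cells, against 21.7%, and 3 of 8 in endothelial cells, against 18.5%. The 3 mutant and 3 control arrays did not overlap for 4 of 8 genes in podocytes, against 21.3% of all clusters. They did not overlap for 3 of 7 in mesangial cells, against 28.6%, and for 2 of 8 in endothelial cells, against 25.1%. The median log2 difference, mutant minus control, of the genes tested was 0.09 in podocytes, -0.12 in mesangial cells and 0.33 in endothelial cells (0.36 there without *Synpo*, whose control arrays were under the signal minimum). Over all clusters tested it was -0.04, -0.02 and 0.07. Fewer cells of a type and less RNA per cell cannot be told apart in these bulk samples.

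**Figure D3:**
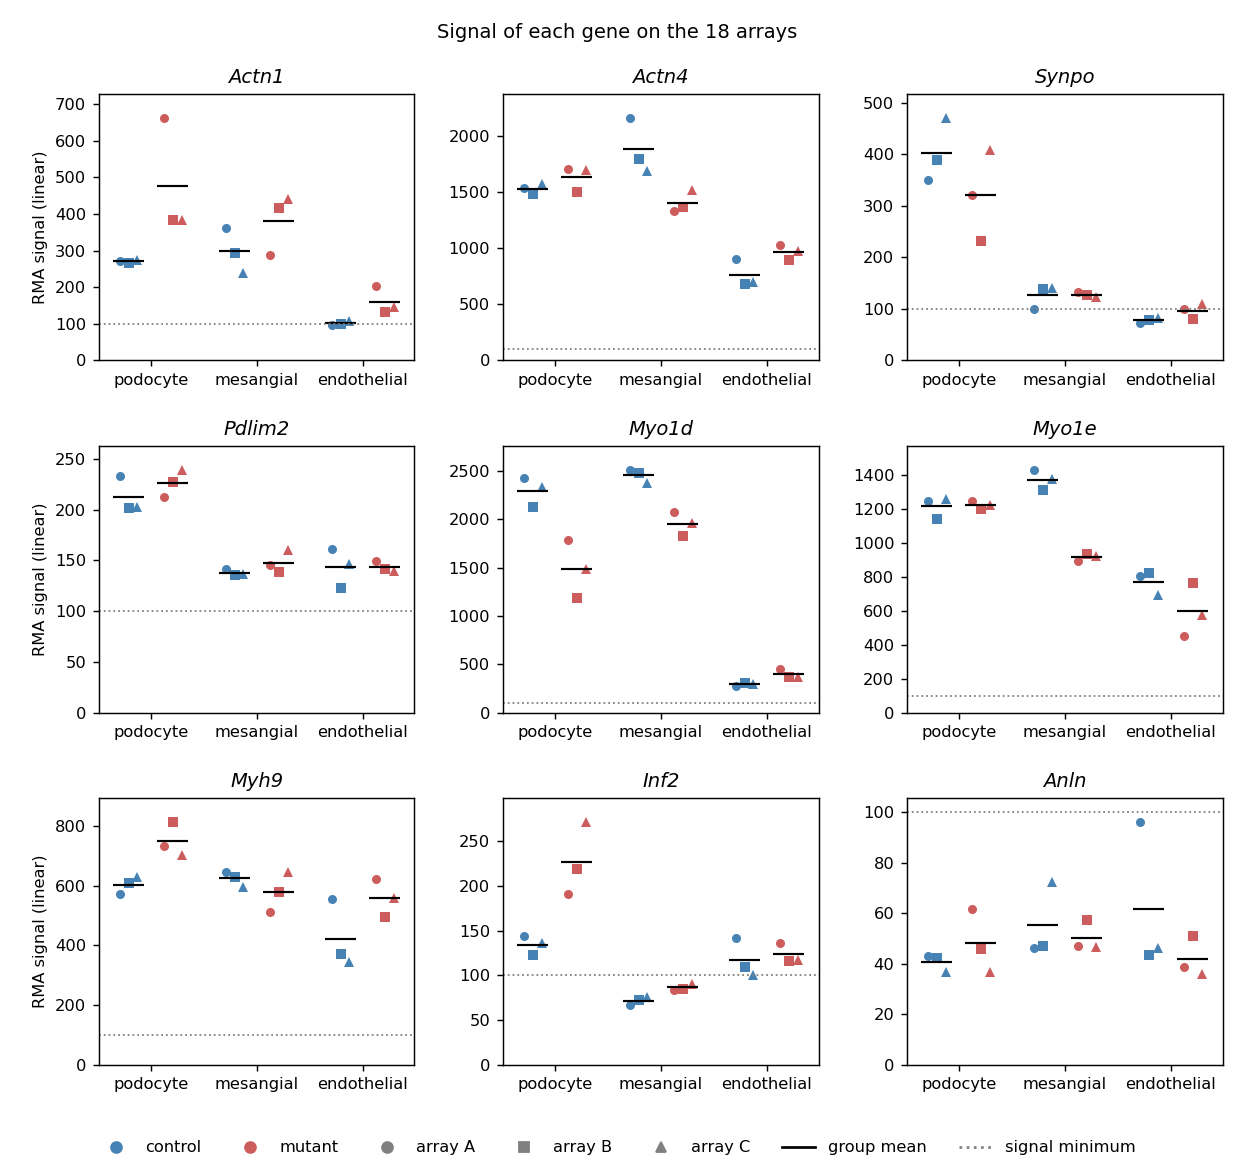
RMA signal on a linear scale of each of the 9 genes on the 18 arrays, with 1 point per array, shaped by array, coloured by genotype, a bar at each group mean and a dotted line at the signal minimum of 100. *Actn1* and *Inf2* lie above the controls on all 3 mutant podocyte arrays, *Myo1d* lies below them, and *Anln* stays under the minimum everywhere.

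**Figure D4:**
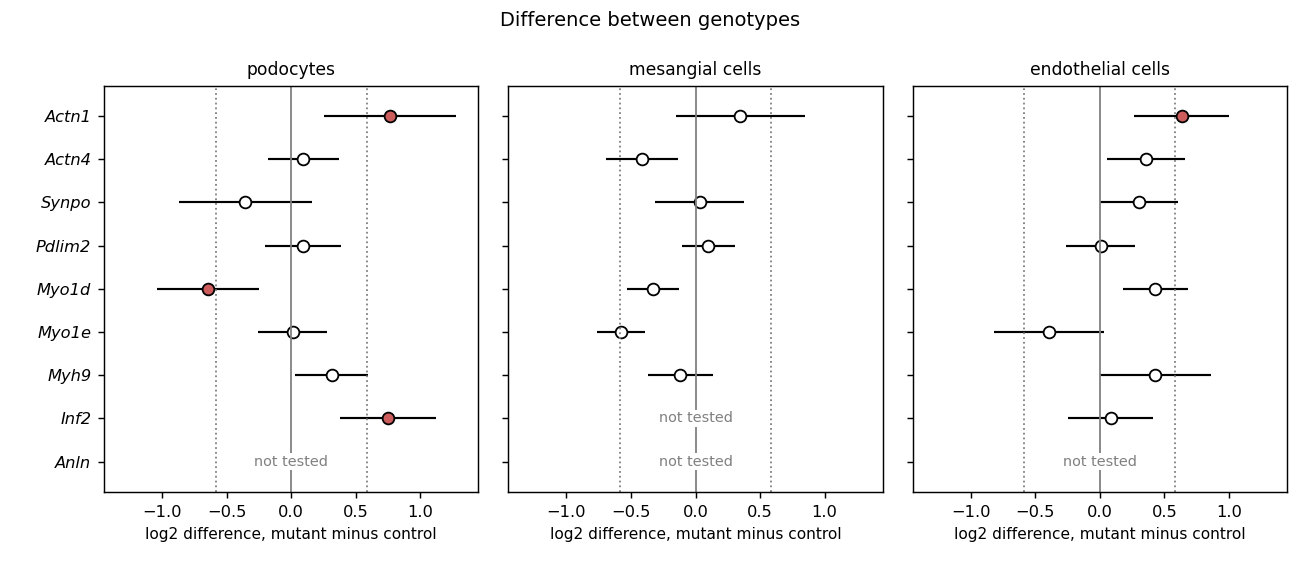
Log2 difference, mutant minus control, of each gene in the 3 cell types with the 95% confidence interval from limma (3 arrays per group). Filled points passed the screen, dotted lines mark a fold change of 1.5, and *Myo1e* in mesangial cells lies just inside its dotted line. The *Synpo* point in endothelial cells rests on control arrays under the signal minimum.

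*Actn1* encodes α-actinin-1, a filament cross-linker of stress fibres and focal adhesions. Its signal was 272, 267 and 275 on the control podocyte arrays and 663, 383 and 383 on the mutant arrays. The control arrays lay close together, and every mutant array was above them. The log2 difference was 0.76 ± 0.22 (SE, n = 3 against 3; 95% confidence interval 0.25 to 1.27), a fold change of 1.70, with a limma p of 0.0091 and an adjusted p of 0.213. Array A gave the highest of the 3 mutant values, and without it the difference was 0.50, under the fold change of 1.5, with an unadjusted limma p of 0.0046. Averaged over both *Actn1* clusters of the array it was 0.43, also under that fold change. The summed juxtaglomerular and smooth muscle signal was 3887, 4177 and 1490 on mutant arrays A, B and C and 1764 to 1935 on the control arrays, and its part in the difference was not tested.

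In endothelial cells *Actn1* followed the same direction at a lower level. Its signal was 97.7, 98.1 and 108 on the control arrays and 203, 131 and 145 on the arrays labelled mutant, again without overlap. This gave a log2 difference of 0.63 ± 0.16 (SE), a fold change of 1.55, with a limma adjusted p of 0.113. Array A was again the highest, and without it the difference was 0.45 and no longer passed the screen. It also missed the screen with quantile normalization, at 0.56, and with the mean of both clusters, at 0.32. The summed mesangial markers were also highest on that array, at 1034 against 674 to 734 on the control endothelial arrays and 742 and 759 on the other mutant arrays. So were the summed leukocyte markers, at 840.2 against 454 to 506 on the control arrays and 591 and 509.7 on the other mutant arrays. Of the 8 mesangial markers, 2 were tested in endothelial cells and 1 was called higher. The defining mesangial markers lay under the signal minimum on every endothelial array. The part of either sum was not tested. In mesangial cells the groups overlapped, at 361, 294 and 240 on the control arrays and 287, 415 and 440.1 on the mutant arrays. The log2 difference was 0.35 ± 0.21 (adjusted p = 0.387 in limma). It was 0.54 without mutant array A and 0.20 without control array C, both under the fold change of 1.5. Among the controls *Actn1* was 2.68-fold higher in podocytes than in endothelial cells (adjusted p = 9.0e-06 in limma) and 2.91-fold higher in mesangial than in endothelial cells (adjusted p = 0.00045). With the mean of both clusters these log2 differences were 0.84 and 0.82, in place of 1.42 and 1.54, and were still called. Podocytes and mesangial cells differed by a log2 value of -0.12 (95% confidence interval -0.47 to 0.23). A further *Actn1* cluster, which the table shares with a gene named *Strm*, stayed between 50.8 and 82.4 on the 18 arrays and was not tested.

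*Actn4* encodes α-actinin-4, the form that cross-links the actin bundles of foot processes. Its cluster is shared in the table with *Capn12*, so the signal cannot be assigned to *Actn4* alone. The podocyte arrays showed little spread, at 1542, 1481 and 1569 in the controls and 1705, 1504 and 1698 in the mutants. The groups overlapped, and the log2 difference was 0.09 ± 0.12 (95% confidence interval -0.18 to 0.37). In mesangial cells the control arrays gave 2164, 1795 and 1692 and the mutant arrays 1335, 1368 and 1519. All mutant arrays were lower, by a log2 difference of -0.42 ± 0.12 (SE; limma adjusted p = 0.114), a fold change of 1.33 that is under the screen. In endothelial cells the groups overlapped, at 908, 682 and 697 in the controls and 1033, 898 and 979 on the arrays labelled mutant, with a log2 difference of 0.36 ± 0.13 (adjusted p = 0.212 in limma). Among the controls *Actn4* was 2.02-fold higher in podocytes and 2.48-fold higher in mesangial cells than in endothelial cells (adjusted p = 0.00036 and 0.00082 in limma). Podocytes were below mesangial cells by a log2 value of -0.29 (adjusted p = 0.0948), which did not pass the test.

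*Synpo* encodes synaptopodin, an actin-associated protein of mature foot processes that binds α-actinin. It had the clearest podocyte pattern of the controls, with signals of 349, 389 and 470.4 in podocytes, 99.7, 139 and 140.3 in mesangial cells and 73.5, 77.5 and 82.3 in endothelial cells. The 3 control groups did not overlap, and all pairs of cell types were called. Podocytes were 3.20-fold above mesangial cells (log2 difference 1.68 ± 0.17, adjusted p = 0.0007 in limma). Each endothelial control value lay under the signal minimum, so the differences from endothelial cells are bounds. Against the minimum of 100, podocytes were at least 4.00-fold above endothelial cells (adjusted p = 3.0e-06 in limma for the signals as measured, group means 403 and 77.8). Mesangial cells were at least 1.25-fold above them (adjusted p = 0.0128, group means 126 and 77.8). In mutant podocytes *Synpo* gave 322, 232 and 408, which overlapped the controls. The log2 difference was -0.36 ± 0.22 (95% confidence interval -0.87 to 0.16; adjusted p = 0.497 in limma). It was 0.03 ± 0.15 in mesangial cells, where the mutant arrays gave 132, 128 and 123. Endothelial arrays labelled mutant gave 100.4, 79.7 and 109.7, around the signal minimum, with each control under it, so no size is given there (adjusted p = 0.27 in limma).

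*Pdlim2* encodes a PDZ-LIM protein that binds α-actinin on actin bundles. Its control signals were 233, 202 and 203 in podocytes, 141, 135 and 136 in mesangial cells and 162, 123 and 146 in endothelial cells. Every podocyte array was above every array of the other cell types. The fold change was 1.54 against mesangial cells (log2 difference 0.62 ± 0.09, adjusted p = 0.0032 in limma), which was called. Against endothelial cells it was 1.49, with an adjusted p of 0.0074 in limma, just under the fold change of 1.5, so the call depended on the fold change limit. Without podocyte control array A the log2 difference from mesangial cells was 0.56 and lost its call, as it did at 0.55 with array medians subtracted, and without any 1 of endothelial control arrays A and C and podocyte control arrays B and C that from endothelial cells was 0.59 to 0.66 and gained one. Mesangial and endothelial cells differed by a log2 value of -0.05 (95% confidence interval -0.33 to 0.22). It passed no genotype test. The mutant arrays gave 212, 227 and 239 in podocytes, 145, 138 and 159.8 in mesangial cells and 149, 142 and 139.7 in endothelial cells. The log2 differences were 0.09 ± 0.13, 0.10 ± 0.09 and 0.01 ± 0.12, with 95% confidence intervals of -0.20 to 0.38, -0.11 to 0.31 and -0.26 to 0.28.

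*Myo1d* encodes a class I myosin, a single-headed motor that tethers membranes to actin. Its signal was 2434, 2126 and 2334 on the control podocyte arrays and 1790, 1188 and 1482 on the mutant arrays. The mutant values were spread but all lay below the controls. The log2 difference was -0.65 ± 0.17 (SE; 95% confidence interval -1.04 to -0.25), a fold change of 1.56, with a p of 0.0058 and an adjusted p of 0.197 in limma. The other *Myo1d* cluster, with a control mean of 2049 and a mutant mean of 1274, gave -0.70 ± 0.16 and also passed the screen (adjusted p = 0.16 in limma). Without mutant array B, the lowest, the difference of the main cluster was -0.49, which is under the fold change of 1.5. The mesangial and endothelial marker sums were also lower on the mutant podocyte arrays, and their part in this difference was not tested.

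In mesangial cells *Myo1d* was also lower on the mutant arrays, but did not pass the screen. The control arrays gave 2513, 2481 and 2381 and the mutant arrays 2077, 1824 and 1968, without overlap. In log2 units the shift was -0.33 ± 0.08 (adjusted p = 0.0918 in limma), and that of the other cluster was -0.44 ± 0.08 (adjusted p = 0.0474). Both were under the fold change of 1.5. The genotype effects on the main cluster in podocytes and mesangial cells were not shown to differ, at -0.31 ± 0.18 (adjusted p = 0.52 in limma). In endothelial cells the direction was opposite, with 273, 307 and 296 on the control arrays and 447, 368.43 and 368.39 on the arrays labelled mutant. The groups did not overlap, at a log2 difference of 0.43 ± 0.11 (adjusted p = 0.113 in limma), a fold change of 1.35. The mesangial marker sum was also higher on these mutant arrays, at 1034, 742 and 759 against 674 to 734. It was highest on array A, as *Myo1d* was. Of its 8 markers, 2 were tested in endothelial cells and 1 was called higher. Its defining markers lay under the signal minimum on every endothelial array. The part of this sum was not tested. Among the controls *Myo1d* was 7.87-fold higher in podocytes than in endothelial cells (log2 difference 2.98 ± 0.10, adjusted p = 2.2e-07 in limma) and 8.43-fold higher in mesangial cells (3.07 ± 0.09, adjusted p = 1.5e-06). Podocytes and mesangial cells differed by a log2 value of -0.10 (95% confidence interval -0.31 to 0.11).

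*Myo1e* encodes myosin 1E, the class I myosin of podocytes that is found near the slit diaphragm. In podocytes the genotypes could not be separated, at 1251, 1141 and 1263 in the controls and 1250, 1203 and 1226 in the mutants. Mutant minus control was 0.01 ± 0.12 on the log2 scale, with a 95% confidence interval of -0.26 to 0.28. In mesangial cells the control arrays gave 1432, 1313 and 1377 and the mutant arrays 894, 939 and 926. The 3 mutant values lay close together and well below the controls. Mutant minus control was -0.58 ± 0.08 on the log2 scale (SE; 95% confidence interval -0.76 to -0.39), with a p of 0.00017 and an adjusted p of 0.0207 in limma. The fold change of 1.49 missed the limit of 1.5, so the screen did not call it. Without mutant array B (-0.59) or control array B (-0.61) it did. Of the 7 members tested in mesangial cells, *Myo1e* was the 1 with an adjusted p under 0.05 at any fold change, where 2.92% of clusters had one. Without control array C, the mesangial array that carried podocyte and endothelial markers, the difference was -0.58 and the adjusted p 0.039. Leaving out each other mesangial array in turn gave an adjusted p of 0.061 to 0.086 in limma, so that p under 0.05 depended on single arrays. The mesangial marker sum was also lower on the mutant mesangial arrays, and its part in this difference was not tested. In endothelial cells the values were 806, 823 and 692 in the controls and 454, 767 and 578 on the arrays labelled mutant. They overlapped, at a log2 difference of -0.40 ± 0.18 (adjusted p = 0.295 in limma), and at -0.59, past the screen, without mutant array B. Leaving out mutant array A moved it the other way, to -0.21 (adjusted p = 0.597 in limma). Among the controls *Myo1e* was 1.58-fold higher in podocytes and 1.78-fold higher in mesangial cells than in endothelial cells (adjusted p = 0.0015 and 0.001 in limma). The podocyte difference was 0.58 on the log2 scale without endothelial control array C, just under the limit.

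*Myh9* encodes the heavy chain of non-muscle myosin IIA, the motor that contracts actin bundles. Its control signals were 572, 608 and 630.3 in podocytes, 648, 631 and 597 in mesangial cells and 556, 371 and 343 in endothelial cells. Endothelial array A, the array with the highest proliferation marker sum of 1056, was close to the other cell types, and arrays B and C were lower. The fold change of mesangial over endothelial cells, 1.51, was called (adjusted p = 0.0444 in limma), and that of podocytes, 1.46, was not (adjusted p = 0.0375), because of the fold change limit. The mesangial call was lost without any 1 of 5 of the 6 arrays (adjusted p of 0.0614 to 0.134 in limma) and held without endothelial array A, where the log2 difference was 0.81. It was also lost with no signal minimum (adjusted p = 0.0852 in limma) and with quantile normalization (log2 difference 0.51). Without that array the log2 difference of podocytes over endothelial cells was 0.76 and was called. In mutant podocytes *Myh9* gave 735, 814 and 704, above every control array. Their log2 difference was 0.31 ± 0.12 (limma adjusted p = 0.319), a fold change of 1.24 that is under the screen. In mesangial cells the mutant arrays gave 512, 578 and 646, which overlapped the controls, at a log2 difference of -0.12 ± 0.11. In endothelial cells the arrays labelled mutant gave 624, 494 and 560.4, at a log2 difference of 0.43 ± 0.19 (adjusted p = 0.272 in limma). Without endothelial control array A that difference was 0.64, past the screen (adjusted p = 0.0551).

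*Inf2* encodes inverted formin 2, which both assembles and disassembles filaments. Its signal was 144, 123 and 136 on the control podocyte arrays and 191, 219 and 271 on the mutant arrays. The groups did not overlap, and the mutant arrays were more spread. The log2 difference was 0.75 ± 0.16 (SE; 95% confidence interval 0.37 to 1.12), a fold change of 1.68, with a p of 0.0018 and an adjusted p of 0.144 in limma. The highest value came from mutant array C, whose endothelial, mesangial and smooth muscle marker sums were the lowest of the 6 podocyte arrays, and their part was not tested. Without array A the difference was 0.86 (adjusted p = 0.0426 in limma), and without array C it was 0.61. Leaving out each other podocyte array than mutant array A gave an adjusted p of 0.174 to 0.494 in limma. Each removal of 1 podocyte array left *Inf2* past the screen. In endothelial cells the genotypes overlapped, with 142, 109 and 101 in the controls and 136, 116 and 118 on the arrays labelled mutant (log2 difference 0.08 ± 0.14). All 6 mesangial arrays lay under the signal minimum, at 66.5, 72.1 and 76.0 in the controls and 83.3, 85.2 and 90.7 in the mutants, so no genotype test was made there. *Inf2* entered the comparisons with control mesangial cells only through the other cell type, so its differences there are bounds. Against the minimum of 100, control podocytes were at least 1.34-fold above control mesangial cells (adjusted p = 0.00089 in limma for the signals as measured, group means 134 and 71.5). Endothelial cells were at least 1.16-fold above mesangial cells (adjusted p = 0.0099, group means 117 and 71.5), a call that was lost without endothelial control array A. Podocytes and endothelial cells did not pass the test (log2 difference 0.21, 95% confidence interval -0.12 to 0.53).

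*Anln* encodes anillin, a scaffold of the cytokinetic ring that binds actin, myosin II and septins and is known to bind CD2AP. Its signals lay between 35.7 and 96.0 on the 18 arrays, under the minimum of 100, and it entered no test. The podocyte arrays gave 42.96, 42.2 and 36.6 in the controls and 61.8, 45.8 and 36.6 in the mutants. The mesangial arrays gave 46.2, 47.0 and 72.4 in the controls and 46.8, 57.3 and 46.5 in the mutants. The endothelial arrays gave 96.0, 43.3 and 46.0 in the controls and 38.8, 51.1 and 35.7 on the arrays labelled mutant. No cell type or genotype stood apart, and single arrays held the highest values. The highest, endothelial control array A, also had the highest summed signal of 8 proliferation genes, 1056, with *Top2a* at 252 and *Mki67* at 159. The second highest, mesangial control array C at 72.4, had the second highest proliferation sum, 906, with *Top2a* at 299 and *Mki67* at 162. Below these the orders parted: the arrays ranked 3 and 4 by *Anln*, podocyte mutant A and mesangial mutant B, were ranked 7 and 8 of 18 by the proliferation sum, and mesangial mutant A was ranked 7 and 17. A further *Anln* cluster stayed between 33.9 and 43.3.

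A change called in one cell type and not in another is not shown to differ, so the difference between the genotype effects of each pair of cell types was tested in 1 limma fit over the 18 arrays. A difference was called at an adjusted p under 0.05. *Myo1d* was called between podocytes and endothelial cells, the lower signal in mutant podocytes against the higher signal on endothelial arrays labelled mutant, at -1.08 ± 0.18 on the log2 scale (adjusted p = 0.0124). Its other cluster gave -1.01 ± 0.16 (adjusted p = 0.0095). It was 1 of 8 members called there, where 2.11% of all 13523 clusters were. That share depended on single arrays, from 0.223% without endothelial mutant array A to 13.8% without podocyte mutant array A. *Actn4* was called between endothelial and mesangial cells, at 0.77 ± 0.17 (adjusted p = 0.0378), again 1 of 8, where 1.07% of clusters were. The mesangial marker sum was lower and the juxtaglomerular and smooth muscle sum higher on the mutant mesangial arrays. Of the 7 markers of the latter list tested there, 2 passed the genotype screen as higher, *Acta2* and *Tagln*, and none of the defining ones did. The part of these sums in the *Actn4* difference was not tested. Control columns of mesangial cells are marked with both signs, plus and minus, while endothelial ones have plus signs alone, so cell type and control allele cannot be told apart in it. *Myo1d* in that comparison gave 0.76 ± 0.18 with an adjusted p of 0.0528, and 0.74 ± 0.16 with an adjusted p of 0.0382 on its other cluster. Between podocytes and mesangial cells 0 of 8 were called in limma, where 0.717% of clusters were, and 3 members had an unadjusted p under 0.05, where 12% of clusters did. These were *Actn4* at 0.51 ± 0.17, *Myo1e* at 0.59 ± 0.19 and *Inf2*, whose mesangial arrays all lay under the signal minimum, so that no size is given for it. In each of the other pairs 3 members had such a p as well, where 23.4% of clusters did between podocytes and endothelial cells and 15.9% between endothelial and mesangial cells. *Synpo* was among those between podocytes and endothelial cells. Its endothelial control arrays all lay under the signal minimum, so no size is given for it. Without mutant podocyte array A the *Inf2* effect was called as well between podocytes and endothelial cells, at 0.78 (adjusted p = 0.0183 in limma, against 0.66 and 0.0763 with it), in the setting where 13.8% of clusters were called. Without endothelial control array A the *Myh9* effect was called between endothelial and mesangial cells, at 0.76 (adjusted p = 0.0356, against 0.55 and 0.223 with it). The *Actn1* effects in podocytes and in endothelial cells differed by 0.13, with a 95% confidence interval of -0.53 to 0.79. Without any 1 of 8 of the 12 endothelial and mesangial arrays *Actn4* lost its call between those cells, with an adjusted p up to 0.114, while *Myo1d* kept its call between podocytes and endothelial cells without any 1 of the 12 arrays, with an adjusted p of at most 0.0448.

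**Figure D5:**
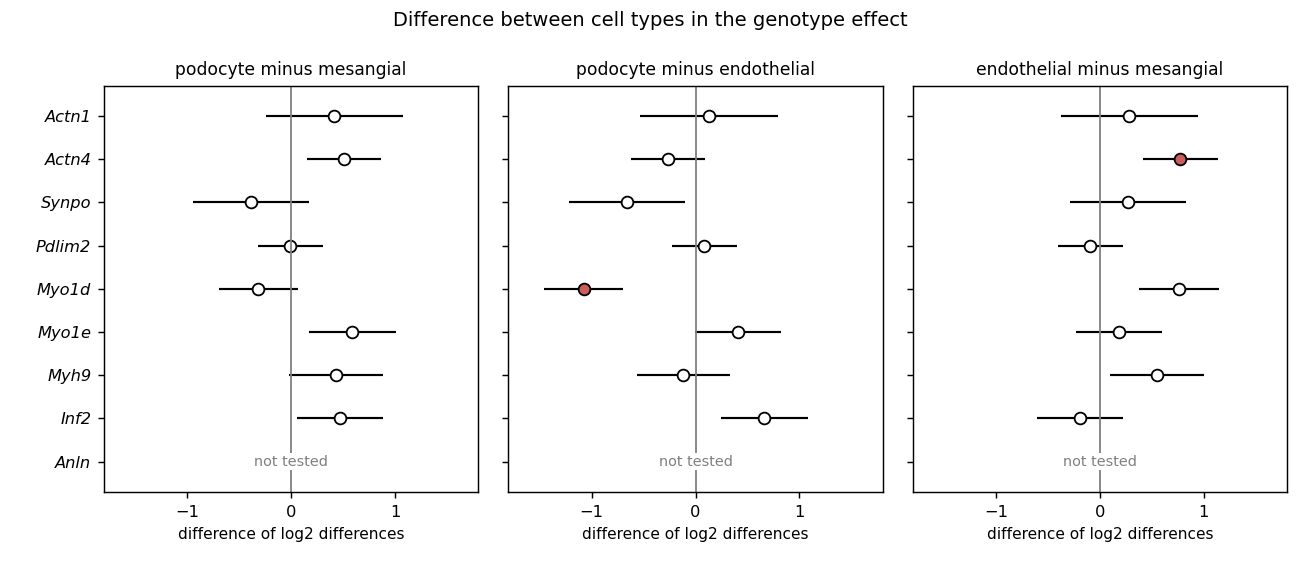
Difference between cell types in the genotype effect (mutant minus control, log2) of each gene, with the 95% confidence interval from 1 limma fit over 18 arrays. Filled points had an adjusted p under 0.05, *Myo1d* between podocytes and endothelial cells at -1.08 and *Actn4* between endothelial and mesangial cells at 0.77. The *Inf2* differences that involve mesangial cells rest on arrays under the signal minimum, and the *Synpo* differences that involve endothelial cells on control arrays under it.

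Other genes of the same machinery were read from 10 lists of actins, myosins, formins, Arp2/3 subunits, turnover factors, cross-linkers, PDZ-LIM proteins, small GTPase regulators and cytokinesis partners, 123 genes in all. By the genotype screen, 2 of the 92 tested in podocytes were higher and 3 lower, 4 of 90 in mesangial cells were higher and 2 lower, and 2 of 80 in endothelial cells were higher and 0 lower. In all, 5.43%, 6.67% and 2.5% of the list genes were called, close to the 5.61%, 5.19% and 3.82% of all clusters. The median log2 difference of the list genes tested was -0.06, -0.0071 and 0.06 in the 3 cell types, beside -0.04, -0.02 and 0.07 over all clusters tested. In podocytes the called genes were *Acta2*, smooth muscle actin (log2 difference 1.26), *Nexn*, an actin binder of Z-discs (0.86), *Ssh2*, a cofilin phosphatase (at least 1.41-fold lower, with each mutant array under the signal minimum), *Kank4* (-0.74) and *Dlc1*, a GTPase-activating protein (-0.68). None of these had an adjusted p under 0.05 in limma. *Acta2* was at 1050, 781 and 247 on the mutant podocyte arrays and at 209 to 266 on the controls, and is itself 1 of the smooth muscle markers, so it moved with the juxtaglomerular and smooth muscle marker sum, whose part was not tested. In mesangial cells *Pdlim1* (1.05, adjusted p = 0.0418) and *Pdlim5* (0.92, adjusted p = 0.028), PDZ-LIM relatives of *Pdlim2*, were higher in the mutants in limma, 2 of the 3 tested PDZ-LIM genes, while *Pdlim2* was at 0.10. *Acta2* (1.07) and *Tagln* (0.88) were also called higher there, and *Trpc6*, a calcium channel (-1.14), and *Kank4* (-0.78) lower. On these mutant mesangial arrays the juxtaglomerular and smooth muscle marker sum was higher and the mesangial marker sum lower. *Acta2* and *Tagln* are themselves markers of the former list, the 2 of its 7 tested there that passed the screen. Its defining markers had log2 differences of 0.01, -0.10 and 0.13 and did not pass. The part of these sums in the calls was not tested. In endothelial cells the formin *Fmnl2* (0.60) and *Pdlim1* (0.76) were called higher on the arrays labelled mutant. Of the 9 cytokinesis genes listed, 5 were matched by symbol.

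Across control cell types the same lists moved in both directions. Between podocytes and mesangial cells 8 of 92 were called higher in podocytes and 18 lower. Those higher were led by *Magi2*, a slit diaphragm scaffold (log2 difference 3.59), and *Ezr*, the membrane linker ezrin (2.89). Those lower included the non-muscle myosin IIB gene *Myh10* (-1.79), a relative of *Myh9*, which was not called between these cells. Between podocytes and endothelial cells 25 were called higher and 18 lower, and between mesangial and endothelial cells 27 higher and 12 lower, again of 92. This was 28.3%, 46.7% and 42.4% of the list genes in the 3 comparisons, against 15.4%, 22.5% and 17.9% of all clusters. The median log2 difference of the list genes was -0.21, 0.02 and 0.21 in these 3 comparisons, beside -0.04, -0.02 and -0.01 over all clusters. Of the called list genes, 1 of 26, 11 of 43 and 11 of 39 had a cell type with every control array under the signal minimum. Among these was the formin *Daam2*, which against that minimum was at least 4.81-fold higher in podocytes and at least 4.45-fold higher in mesangial cells than in endothelial cells. The myosin II light chain gene *Myl9* was higher in mesangial cells (5.03) and in podocytes (3.37) than in endothelial cells.

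Genes with the most similar course over the 18 arrays were taken as those with the highest Pearson r of log2 signals, among 11130 to 11132 single-gene clusters. These values describe points that share cell type and array, and carry no test. *Actn1* ran closest to *Tpm1*, a tropomyosin (r = 0.941), *Actn4* to *Trip6* (0.955), *Inf2* to *2310044H10Rik* (0.947) and *Pdlim2* to the basement membrane collagen gene *Col4a5* (0.954). *Synpo* ran closest to the podocyte transcription factor gene *Foxc2* (0.977), *Myo1d* to *Npr3*, the natriuretic peptide clearance receptor gene (0.985) and *Myo1e* to *Hspa12a* (0.934). *Anln*, which lay under the signal minimum on all 18 arrays, ran closest to the mitotic gene *Trip13* (0.854), followed by *Mki67* (0.845) and *Tpx2* (0.843). Among the members, *Actn4* and *Myo1d* were the closest pair (r = 0.923 over 18 arrays), but after group means were removed their r was 0.23. *Actn4* and *Myh9* had the highest r within groups, 0.72, and 0.80 over the 18 arrays.

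Promoter windows of 300 bases, 250 before and 50 after the start site, were taken from RefSeq for GRCm38.p6, which held 7 windows for 6 of the 9 genes. Shown are the genes called higher in mutant podocytes, *Actn1* and *Inf2*, and the gene lowest by adjusted p in mutant mesangial cells, *Myo1e*. The motifs searched, on both strands, were the CArG box of serum response factor, CATTCC, the core site of TEAD factors, and TAATTA, a homeodomain core. Capitals mark a motif, and each sequence runs 5′ to 3′ on the strand of the gene.
Inf2, chr12:112588517-112588816, plus strand: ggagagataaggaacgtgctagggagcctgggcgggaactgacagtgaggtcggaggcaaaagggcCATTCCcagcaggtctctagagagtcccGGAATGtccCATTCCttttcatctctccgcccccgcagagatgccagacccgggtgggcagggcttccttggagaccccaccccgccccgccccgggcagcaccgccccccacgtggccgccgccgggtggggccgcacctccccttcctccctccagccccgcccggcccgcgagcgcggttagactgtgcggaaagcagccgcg
Actn1, chr12:80260314-80260613, minus strand: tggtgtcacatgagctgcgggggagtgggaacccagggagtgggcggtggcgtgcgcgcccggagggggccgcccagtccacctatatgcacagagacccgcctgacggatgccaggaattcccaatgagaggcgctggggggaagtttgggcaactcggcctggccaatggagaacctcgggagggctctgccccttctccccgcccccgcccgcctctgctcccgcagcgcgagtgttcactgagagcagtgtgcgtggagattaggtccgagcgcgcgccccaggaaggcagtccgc
Myo1e, chr9:70207100-70207399, plus strand: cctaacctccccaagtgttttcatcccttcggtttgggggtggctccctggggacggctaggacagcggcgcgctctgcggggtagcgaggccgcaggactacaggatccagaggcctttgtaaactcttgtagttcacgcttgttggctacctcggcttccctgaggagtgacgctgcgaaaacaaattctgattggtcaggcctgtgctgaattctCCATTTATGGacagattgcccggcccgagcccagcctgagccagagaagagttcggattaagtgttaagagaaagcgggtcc
The *Inf2* window held CATTCC 3 times, from -184 to -179, from -156 to -151 on the opposite strand, printed as GGAATG, and from -147 to -142, counted from the start site. CATTCC was present in 14.7% of all 32851 windows of this length. The *Myo1e* window held a CArG box from -32 to -23, which 1.63% of all windows held. The *Actn1* window held none of the 3 motifs, nor did those of *Anln* and *Myh9*, and *Actn4* held CATTCC once. TAATTA, present in 5.29% of all windows, was in none of the 7. A match describes the letters of the window and is no evidence of binding.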

How the data were processed

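The 9 genes and all gene lists were chosen with earlier results of these data known. RNA from sorted cells had been amplified by 1 round of Ribo-SPIA and hybridised to arrays. The authors deposited each array's intensity as a linear RMA signal per transcript cluster. The sample records name RMA in Expression Console, the methods GeneSpring, and the series record Exon arrays and GeneBASE, which the file header does not. The table holds 28856 transcript clusters, 25254 of them with a symbol. The columns of median-centred values were not used, and RNA-seq libraries were not analysed here. Columns were matched to groups by cell type and genotype, and 0 columns were left unmatched.

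Signals were taken to log2 without a pseudocount. Clusters with a signal of at least 100 on at least 1 array of a comparison were fitted in R 4.3.3 (limma 3.58.1, functions lmFit and eBayes) without covariates, on the 6 arrays of each comparison, and on 18 arrays for differences between genotype effects. Adjusted p-values are Benjamini-Hochberg values over all clusters tested. Scripts were tested on simulated data. The p-values measure the spread between these arrays. Figures were drawn with matplotlib 3.10.9. The genes named were the members, *Cd2ap*, up to 4 called genes per list and comparison, the defining markers and the genes of closest course; *Tagln*, *Acta2*, *Tpx2* and single arrays were picked out after their values were seen. Some genes that this rule names are not reported here. Alternatives were another filter, no filter, intensity trend with robust estimation, array medians subtracted, quantile normalization, the mean of all clusters of a gene, the other p rule, all 18 arrays in 1 fit, that fit with the adjusted p (added after the data were seen), and each array left out in turn.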

Additional observations from a re-analysis of the deposited data

Results flagged for a closer look

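In 2 cases the difference between the genotype effects of 2 cell types passed a test of its own in limma. The genotype effect on *Myo1d* differed between podocytes and endothelial cells by -1.08 on the log2 scale (adjusted p = 0.0124, 18 arrays), with all 3 mutant podocyte arrays below their controls and all 3 endothelial arrays labelled mutant above theirs. The genotype effect on *Actn4* differed between endothelial and mesangial cells by 0.77 (adjusted p = 0.0378, 18 arrays), where the 3 mutant mesangial arrays lay below their controls and the endothelial groups overlapped. The call was lost without any 1 of 8 of the 12 arrays of these cells, with an adjusted p up to 0.114 in limma, and the cluster is shared with *Capn12*. On the mutant mesangial arrays the mesangial marker sum was lower and the juxtaglomerular and smooth muscle sum higher. Of the 7 markers of the latter list tested there, 2 passed the genotype screen as higher, *Acta2* and *Tagln*, and none of the defining ones did. The part of these sums was not tested. Control columns of mesangial cells are marked with both signs, plus and minus, while endothelial ones have plus signs alone, so cell type and control allele cannot be told apart in this difference. Markers of other cells differed between mutant and control podocyte arrays. The mesangial marker sum was higher on the mutant endothelial arrays (1034, 742 and 759, against 674 to 734). Of its 8 markers, 2 were tested in endothelial cells and 1 was called higher. Its defining markers lay under the signal minimum on every endothelial array. The part of all these markers in the *Myo1d* difference was not tested.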

How the results depend on the processing

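Directions of the members called in podocytes, *Actn1*, *Inf2* and *Myo1d*, and of *Myo1e* in mesangial cells held under all alternatives and without each array, while several calls sat close to a threshold. With the adjusted p in limma, the count of members called by genotype was 0 in place of 3 in podocytes and 0 in place of 1 in endothelial cells. With the adjusted p and all 18 arrays in 1 fit, a pairing of choices made after seeing the data, it was 3 in podocytes, 0 in mesangial cells and 0 in endothelial cells. With array medians subtracted or quantile normalization it was 1 in place of 0 in mesangial cells, where *Myo1e* reached -0.59 and -0.62. In endothelial cells it was 0 with quantile normalization and 0 with the mean of all clusters of a gene. Quantile normalization also brought *Myo1d* in podocytes to -0.56, under the fold change limit. Each array left out in turn gave 2 to 3 members in podocytes, 0 to 1 in mesangial cells and 0 to 2 in endothelial cells. The adjusted limma p of *Myo1e* in mesangial cells was 0.039 without control array C. It was 0.061 to 0.086 without each other mesangial array, and so no longer under 0.05. For differences between genotype effects, the unadjusted p gave 3 members in each pair of cell types, in place of 0 between podocytes and mesangial cells and 1 in each of the other pairs, where 12%, 23.4% and 15.9% of all clusters passed. Between endothelial and mesangial cells, 2 members passed with the stricter signal minimum, with intensity trend and robust estimation, with array medians subtracted and with the mean of all clusters, the added gene being *Myo1d*. Each array left out gave 1 to 2 members between podocytes and endothelial cells and 0 to 2 between endothelial and mesangial cells. Differences close to 0 changed sign. *Myo1e* in podocytes was -0.021 with array medians subtracted and -0.036 to 0.037 without single arrays. *Pdlim2* in endothelial cells was -0.070 with quantile normalization and -0.10 to 0.10 without single arrays, *Inf2* there was -0.018 to 0.23, and *Synpo* in mesangial cells -0.13 to 0.12. Between control podocytes and mesangial cells *Myh9* was 0.046 with quantile normalization, and *Actn1* 0.020 with the mean of all clusters and -0.27 to 0.029 without single arrays. *Pdlim2* between control mesangial and endothelial cells was -0.16 to 0.038. Over all clusters, the screen and the adjusted rule called 679 and 7 in podocytes, 595 and 252 in mesangial cells and 433 and 128 in endothelial cells. Of the screen's calls in podocytes 22.5% were higher, 33.0% with quantile normalization and 85.7% of the 7 under the adjusted rule. With the adjusted rule and 18 arrays there were 455 calls, 20.9% of them higher, and without podocyte mutant array A the screen called 1235, 16.8% of them higher. Those in endothelial cells were 77.4% higher, 87.7% with array medians subtracted, 65.6% with quantile normalization and 93% under the adjusted rule. Differences between genotype effects were called for 2.11% of clusters between podocytes and endothelial cells, 7.17% with array medians subtracted and 0.577% with quantile normalization. Each array left out gave 0.223% to 13.8% there and 0.327% to 3.14% between podocytes and mesangial cells, against 0.717%. The cause of these changes was not tested.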
